A study of Mus musculus with 17 samples.

Results

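The circadian clock genes described here are 10 mRNAs of the mouse kidney, chosen by name as activators, repressors and output factors of the clock: Arntl, Clock, Npas2, Per1, Per2, Per3, Cry1, Cry2, Nr1d1 and Dbp. All 10 were found by gene symbol among the 22558 genes used, and all 10 passed the filter on low counts in each comparison. RNA of whole kidneys was sequenced in 17 male mice, 1 library per mouse, to ask what differs in diabetic kidney and in diabetic kidney under dapagliflozin, an inhibitor of the kidney glucose transporter SGLT2. The Ctrl group held 5 C57BL/6 mice, whose genotype is labelled WT. The Case group held 6 db/db mice (BKS.Cg-Dock7m +/+ Leprdb/J), which lack a working leptin receptor and become obese and diabetic, and the Dapa group held 6 further db/db mice that received dapagliflozin at 1.0 mg/kg/day. Treatment began at 8 weeks of age and lasted 6 weeks, Ctrl and Case received saline in the same volume, and all mice lived under a cycle of 12 hours of light with lights on at hour 7 of the day. The db/db allele lies on another strain background than the C57BL/6 controls, so that obesity, diabetes and strain cannot be told apart in any comparison with Ctrl. In Dapa against Ctrl the treatment cannot be told apart from them either. The hour at which each kidney was collected is not given in the sources used here, and each mouse was sampled once.

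The clock runs in nearly every cell as a loop of transcription and delayed feedback. ARNTL (also called BMAL1) pairs with CLOCK or with its relative NPAS2 and switches on the Per and Cry genes, whose proteins return to the nucleus and silence that pair. In a further loop the REV-ERB repressors, among them NR1D1, and the ROR activators compete for control of Arntl, and DBP carries the rhythm to many genes of metabolism and transport. In kidney most of these genes cycle strongly over the day, with Arntl and Npas2 peaking about opposite to Dbp and the Per genes. A level read at a single moment therefore depends on the phase of the clock as well as on its mean level, and with 1 sample per mouse the phase and the mean level cannot be told apart in any result that follows. In RNA of a whole organ, fewer cells of a type and less RNA per cell cannot be told apart either.

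The sequence just before the start of a clock gene is where its regulators are known to bind, and windows of 250 bases before the start were read from RefSeq promoters on GRCm38.p6 (the build named mm10 by the authors) for 9 of the 10 genes, 13 windows in all. They were searched on both strands for the E-box CACGTG, bound by ARNTL with CLOCK, the D-box TTATGTAA, bound by DBP, the ROR elements TAGGTCA and TGGGTCA, and the cyclic AMP element TGACGTCA. The 3 windows printed here are those with a match, and the capitals mark the matched letters. That of Cry1 lies at chr10:85185055-85185304 on the minus strand, that of Per1 at chr11:69098699-69098948 on the plus strand, inside the gene as the deposited table gives it, and that of Per3 at chr4:151044666-151044915 on the minus strand.
Cry1: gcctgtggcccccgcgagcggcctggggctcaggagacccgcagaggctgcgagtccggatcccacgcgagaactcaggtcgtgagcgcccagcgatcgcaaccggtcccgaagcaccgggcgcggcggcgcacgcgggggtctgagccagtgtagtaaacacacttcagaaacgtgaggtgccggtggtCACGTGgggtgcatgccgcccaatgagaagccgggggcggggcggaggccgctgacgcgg
Per1: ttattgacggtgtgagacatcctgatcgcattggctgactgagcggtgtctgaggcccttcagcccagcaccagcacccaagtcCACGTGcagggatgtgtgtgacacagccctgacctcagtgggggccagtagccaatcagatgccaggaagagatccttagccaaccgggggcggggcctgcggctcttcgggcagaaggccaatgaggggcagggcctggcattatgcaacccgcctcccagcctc
Per3: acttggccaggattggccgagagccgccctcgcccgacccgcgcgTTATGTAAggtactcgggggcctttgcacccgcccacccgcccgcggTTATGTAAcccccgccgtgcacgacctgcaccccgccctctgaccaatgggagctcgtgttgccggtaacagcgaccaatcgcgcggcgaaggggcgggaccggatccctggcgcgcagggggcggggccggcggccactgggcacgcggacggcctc
The E-box stood 60 bases before the start of Cry1 and 166 bases before the start of Per1, and the D-box stood 205 and 158 bases before the start of Per3. Of 32851 mouse promoter windows of this length, 6.02% held an E-box of these letters and 0.819% a D-box. Neither ROR element (in 2.23% and 3.24% of all promoters) nor the cyclic AMP element (in 1.55%) stood in any of the 13 windows, which says only that these letters are not in these windows.

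Levels between genes were compared as FPKM, a fragment count scaled to the length of the transcript and the size of the library, as the authors deposited it. Over all 17 mice Nr1d1 was the most abundant clock mRNA with 17.3 ± 5.07 FPKM (SD, n = 17), followed by Dbp with 12.4 ± 4.70, Per2 with 9.09 ± 2.59 and Per1 with 7.95 ± 4.00. Lower levels were seen for Cry2 with 5.15 ± 1.96 FPKM, Per3 with 4.05 ± 1.08, Arntl with 3.91 ± 2.37, Cry1 with 3.52 ± 1.96 and Clock with 3.09 ± 0.566. Npas2 was the lowest with 1.00 ± 0.815 FPKM. In this order each neighbouring pair lay closer than the larger SD of the pair, except Clock and Npas2, and even their values overlapped. The order was not the same in each group: in Dapa the mean of Per1 (11.9 FPKM) lay above those of Dbp (10.5) and Per2 (9.77), and in Ctrl that of Cry1 (1.39) lay below those of Clock (3.11) and Arntl (2.79). The least deeply counted were Npas2, with 9 to 211 counts per library, and Cry1, with 38 to 306.

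Among the 10 clock genes Cry1 was higher in both db/db groups than in Ctrl, in every mouse, and the other genes of the loop differed less or not detectably. In Case against Ctrl, 1 of the 10 clock genes, Cry1, had an adjusted p under 0.05 (q, edgeR quasi-likelihood F test, adjusted by Benjamini and Hochberg's method over all genes tested), against 13.0% of the 14582 genes tested. In either direction singly, 6.09% of all genes were called higher and 6.91% lower. With a fold above 2 between FPKM means as a second condition, Cry1 again passed, against 3.79% of all genes. At an unadjusted p under 0.05 stood 3 of the 10, Cry1, Cry2 and Nr1d1, against 28.7% of all genes, and the groups did not overlap in FPKM for 1 of the 10, against 8.43%. These shares lie near those of all genes and are no result about the clock genes as a group.

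In Dapa against Case, edgeR's quasi-likelihood test called 0 of the 10 clock genes and 0% of the 14573 genes tested, with or without the fold condition (0% of all genes under both). At an unadjusted p under 0.05 stood 3 of the 10, Arntl, Npas2 and Per1, against 12.9% of all genes, and none of the 10 was free of overlap between the groups, against 0.480% of all genes. DESeq2 and edgeR's exact test each called 1 of the 10, Per1, and 208 and 129 genes in all, while limma on FPKM and voom called 0 of the 10. In Dapa against Ctrl 5 of the 10 were called, against 29.1% of the 14647 genes tested. The 4 called higher were Arntl, Per1, Cry1 and Cry2 (14.2% of all genes were called higher), and the 1 called lower was Nr1d1 (14.9% of all genes). With a fold above 2 between FPKM means 3 remained, Arntl, Cry1 and Cry2, against 7.18% of all genes, 6 of the 10 had an unadjusted p under 0.05 against 41.1%, and 1 of the 10 did not overlap against 14.5%. With the fold condition 1, Cry1, remained without Ctrl replicate 1, without Dapa replicate 11 and with the fold taken from edgeR, where Arntl and Cry2 differed by 0.97 and 0.90 on the log2 scale. The comparisons share groups, Ctrl in 2 of them and each db/db group in 2, so they are not independent of one another.

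**Figure D1:**
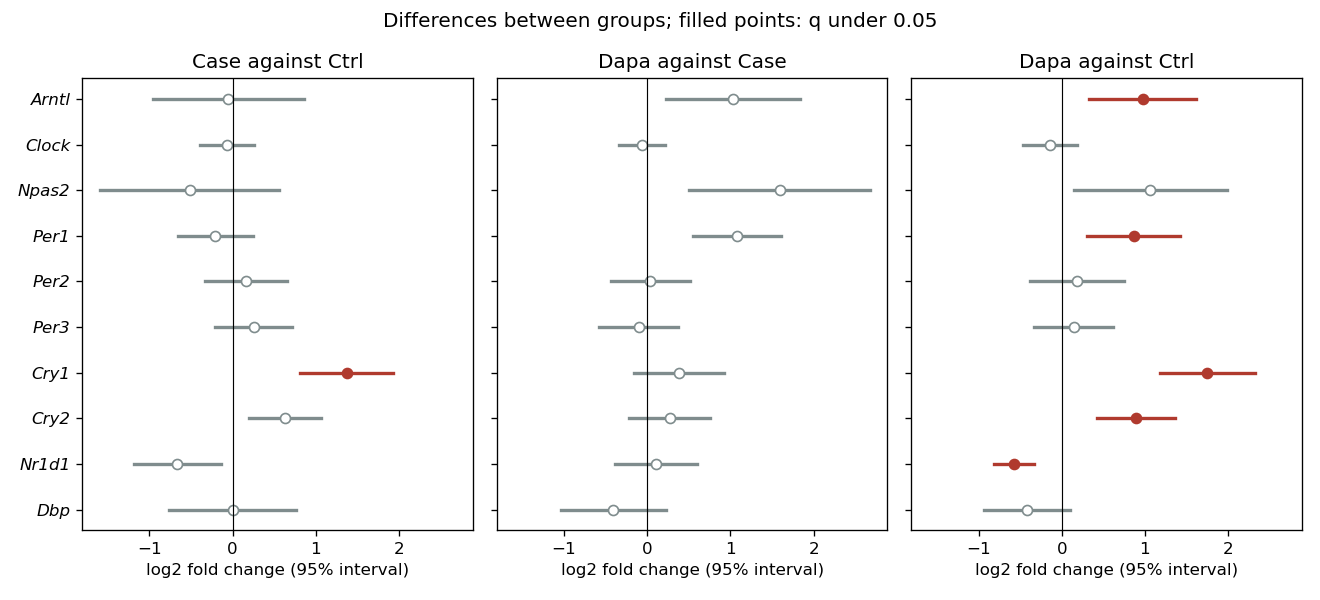
Log2 fold change of each clock gene (rows) with its 95% interval in the 3 comparisons (panels), from edgeR's quasi-likelihood fits; filled red points have q under 0.05. Cry1 was higher than in Ctrl in both db/db groups (1.37 and 1.75), and the intervals of Arntl, Npas2 and Per1 lay above 0 in Dapa against Case without passing the adjusted threshold.

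All fold changes of single genes given here come from edgeR with TMM scaling, under which the median gene differed by 0.03, -0.01 and 0.02 on the log2 scale in the order of the 3 comparisons above. As plain ratios of FPKM means the median gene differed by 0.11, 0.02 and 0.12, so that FPKM ratios against Ctrl run slightly higher than the fold changes printed beside them.

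The activators of the loop came first. Arntl encodes the partner with which CLOCK or NPAS2 forms an activating pair (chr7:113207465-113314122). It stood at 2.84, 2.23, 1.25, 4.40 and 3.21 FPKM in the 5 Ctrl mice, at 1.18 to 7.50 in Case with a median of 2.20, and at 3.09 to 8.74 in Dapa with a median of 5.80. All groups overlapped, and within Case a single mouse, replicate 3, stood at 7.50 while the next reached 2.60. Case differed from Ctrl by -0.05 ± 0.42 on the log2 scale (SE, q = 0.953, 95% interval -0.96 to 0.85). Differences of either sign inside this interval are compatible with these values. In edgeR, Dapa differed from Case by 1.03 ± 0.38 (q = 0.286) and was higher than Ctrl by 0.97 ± 0.30 (q = 0.0277). Without Case replicate 3 the first of these was 1.55 and the difference of Case from Ctrl -0.58, neither called. The call against Ctrl was lost without Ctrl replicate 1 (1.01, q = 0.0502), Ctrl replicate 2 (0.92, q = 0.0644), Ctrl replicate 3 (0.80, q = 0.0515) or Dapa replicate 11 (0.84, q = 0.0616), and with all 3 groups in one fit (0.97, q = 0.0762).

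Npas2, the relative of Clock that can take its place (chr1:39193731-39363236), was scarce. Its 5 Ctrl values were 0.574, 0.568, 0.338, 1.33 and 0.912 FPKM, Case ranged from 0.121 to 1.50 with a median of 0.395, and Dapa from 0.683 to 2.87 with a median of 1.50. The highest Case mouse was again replicate 3, the 3 highest mice of all were Dapa mice, and all groups overlapped. In edgeR, Npas2 differed by -0.52 ± 0.50 in Case against Ctrl (q = 0.537), by 1.59 ± 0.51 in Dapa against Case (q = 0.251) and by 1.07 ± 0.43 in Dapa against Ctrl (q = 0.0752). The first of these was -1.09 without Case replicate 3, -0.31 without Case replicate 2 and -0.22 without Ctrl replicate 4, none called. The last passed without Ctrl replicate 4 (1.36, q = 0.0380), without Dapa replicate 8 (1.21, q = 0.0489) or without Dapa replicate 12 (1.24, q = 0.0391), and under DESeq2 (1.07, q = 0.0348) and the exact test (1.07, q = 0.0485).

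Clock itself, the histone acetyltransferase that pairs with ARNTL (chr5:76209868-76304792), was the steadiest of the activators. The Ctrl mice stood at 2.43, 3.69, 2.34, 4.03 and 3.06 FPKM, Case at 2.42 to 3.83 with a median of 3.07, and Dapa at 2.43 to 4.03 with a median of 2.96. The 3 groups covered almost the same range. The differences were -0.07 ± 0.15 in Case against Ctrl (q = 0.806, interval -0.39 to 0.26) and -0.06 ± 0.13 in Dapa against Case (q = 0.864, interval -0.34 to 0.21).

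**Figure D2:**
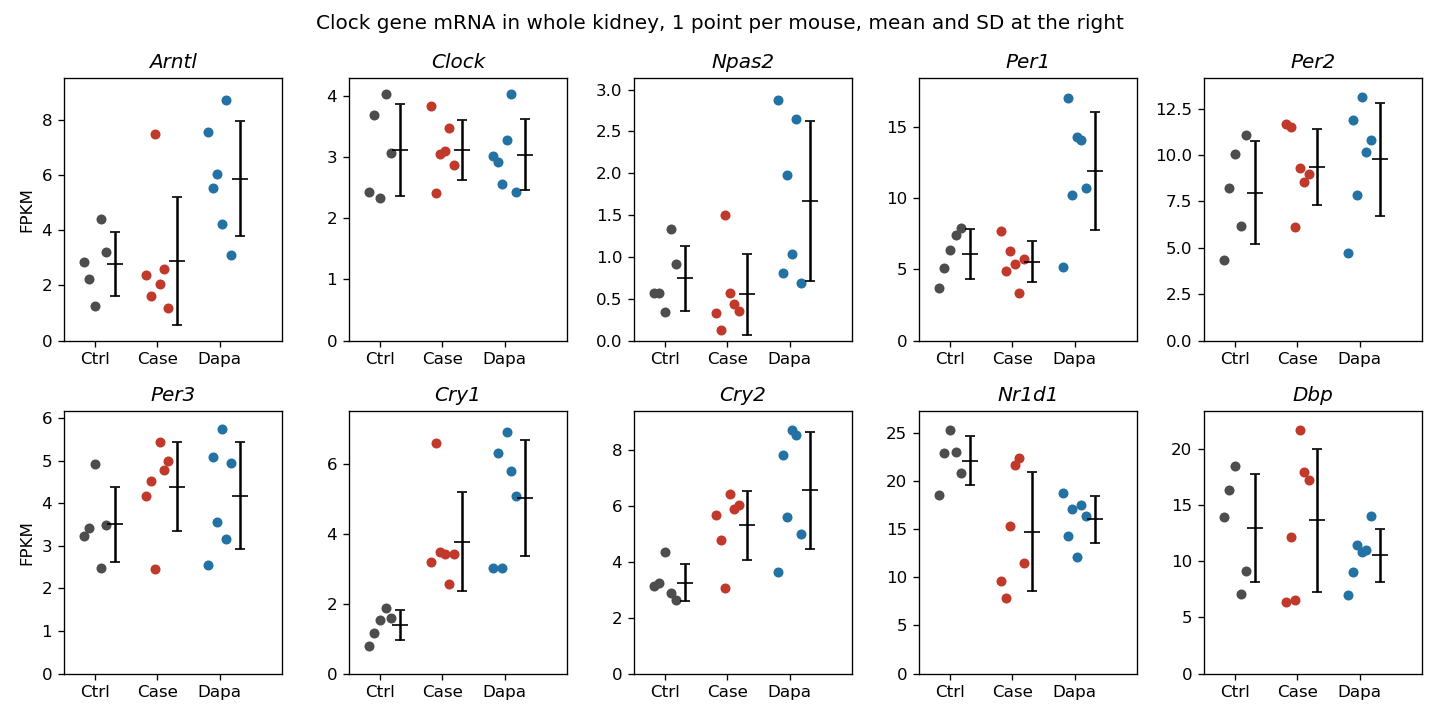
FPKM of the 10 clock genes (panels, linear axes from 0) in whole kidney; each point is a mouse of Ctrl (n = 5, grey), Case (n = 6, red) or Dapa (n = 6, blue), and the bar at the right of each group gives its mean and SD. For Cry1 every Case and Dapa mouse (lowest 2.57 FPKM) lies above the highest Ctrl mouse (1.88), while for the other genes the groups overlap.

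Of the repressors that the activators switch on, the Period genes encode the proteins whose slow build-up sets the length of the cycle. Per1, the member known to answer most quickly to light and hormones (chr11:69095217-69109960), stood at 3.65, 5.07, 6.36, 7.44 and 7.89 FPKM in Ctrl, at 3.31 to 7.70 in Case with a median of 5.53, and at 5.15 to 17 in Dapa with a median of 12.4. All Dapa mice other than replicate 7, at 5.15 FPKM, lay above every Ctrl and every Case mouse. Per1 differed from Ctrl by -0.21 ± 0.21 in Case (q = 0.558). In Dapa it differed from Case by 1.08 ± 0.25 on the log2 scale (p = 0.000667, q = 0.179), a 2.15-fold ratio of FPKM means, and this difference was called without Dapa replicate 7 (1.24, q = 0.0435), by DESeq2 (1.08, q = 0.00505) and by the exact test (1.08, q = 0.00839). Per1 was higher in Dapa than in Ctrl by 0.87 ± 0.26 (q = 0.0245), a call lost without Ctrl replicate 1 (0.75, q = 0.0579), Ctrl replicate 2 (0.82, q = 0.0579) or Dapa replicate 10 (0.81, q = 0.0514).

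Per2 (chr1:91415982-91459324) and Per3 (chr4:151003652-151044665) differed little between the groups. Per2 measured 4.33, 8.21, 10.1, 6.19 and 11.1 FPKM in Ctrl, 6.13 to 11.7 in Case with a median of 9.13, and 4.71 to 13.2 in Dapa with a median of 10.5. Per3 measured 3.22, 3.42, 4.91, 2.49 and 3.48 FPKM in Ctrl, 2.45 to 5.43 in Case with a median of 4.65, and 2.55 to 5.75 in Dapa with a median of 4.25. The groups overlapped over most of their range for both genes. In Case against Ctrl the differences were 0.16 ± 0.23 for Per2 (q = 0.692) and 0.25 ± 0.21 for Per3 (q = 0.470). In Dapa against Case they were 0.04 ± 0.22 for Per2 (q = 0.960) and -0.10 ± 0.22 for Per3 (q = 0.874).

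The Cryptochromes are the repressors that bind the activating pair directly. Cry1, the stronger and later of them (chr10:85131702-85185054), carried the clearest difference. Its FPKM was 0.777, 1.15, 1.52, 1.88 and 1.60 in the Ctrl mice, ranged from 2.57 to 6.61 in Case with a median of 3.42, and from 3.01 to 6.91 in Dapa with a median of 5.44. Every db/db mouse, treated or not, stood above every Ctrl mouse, and the highest Case mouse was replicate 2. Cry1 was higher in Case than in Ctrl by 1.37 ± 0.26 on the log2 scale (q = 0.00585), a 2.73-fold ratio of FPKM means, and higher in Dapa than in Ctrl by 1.75 ± 0.26 (q = 0.000773), a 3.62-fold ratio. Without each of the 11 mice of a comparison in turn the call stood in 11 of 11 fits for both, with differences of 1.15 to 1.49 in Case and 1.62 to 1.87 in Dapa. Dapa differed from Case by 0.38 ± 0.25 (q = 0.529, interval -0.16 to 0.93).

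Cry2, its weaker relative (chr2:92403646-92434043), was at 3.14, 3.25, 4.37, 2.90 and 2.64 FPKM in Ctrl, at 3.06 to 6.45 in Case with a median of 5.78, and at 3.64 to 8.73 in Dapa with a median of 6.72. In Case every mouse other than replicate 3 lay above all Ctrl mice, and in Dapa every mouse other than replicate 7 did. In edgeR the difference of Case from Ctrl was 0.63 ± 0.20 (q = 0.0546), just short of a call, and it was called without Ctrl replicate 3 (0.76, q = 0.0445) or Case replicate 3 (0.75, q = 0.00786), by DESeq2 (0.62, q = 0.0243) and by several other settings. Dapa was higher than Ctrl by 0.90 ± 0.22 (q = 0.00913), in 11 of 11 fits without a mouse. Dapa differed from Case by 0.27 ± 0.23 (q = 0.635).

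Nr1d1 encodes REV-ERB alpha, the repressor of Arntl that needs heme to act (chr11:98767932-98775333). The Ctrl mice lay close together at 18.5, 22.9, 25.3, 23.0 and 20.8 FPKM, while Case spread from 7.87 to 22.4 with a median of 13.4 and Dapa from 12.1 to 18.7 with a median of 16.7. In Case 4 of 6 mice lay below every Ctrl mouse and the other 2, replicates 4 and 5, lay within the Ctrl range. In Dapa every mouse other than replicate 7 lay below all Ctrl mice. In edgeR the difference of Case from Ctrl was -0.67 ± 0.24 (p = 0.0161, q = 0.0863), and it was called without Case replicate 4 (-0.81, q = 0.0466), without Case replicate 5 (-0.84, q = 0.0280) and by DESeq2 (-0.68, q = 0.0401), the exact test (-0.67, q = 0.0495) and voom with sample quality weights (-0.76, q = 0.0371). Nr1d1 was lower in Dapa than in Ctrl by -0.57 ± 0.11 (q = 0.00316), in 11 of 11 fits without a mouse, though with all 3 groups in one fit q was 0.0532. Dapa differed from Case by 0.10 ± 0.23 (q = 0.880).

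Dbp, the PAR bZIP factor that carries the rhythm to output genes (chr7:45705088-45710155), varied widely within each group. It stood at 13.9, 16.3, 18.4, 7.10 and 9.09 FPKM in Ctrl, at 6.36 to 21.7 in Case with a median of 14.7, and at 6.96 to 14.0 in Dapa with a median of 10.9. The groups overlapped over most of their range. Case differed from Ctrl by -0.001 ± 0.355 (q = 0.999, interval -0.77 to 0.77), Dapa from Case by -0.41 ± 0.30 (q = 0.566) and Dapa from Ctrl by -0.42 ± 0.24 (q = 0.212).

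Some exon sequence of these genes is shared with neighbours on the opposite strand. In GENCODE vM21, 539 exon bases of Dbp (18% of them) lie over Sphk2, 263 of Nr1d1 (8.55%) over Thra, 295 of Cry2 (4.67%) over D930015M05Rik and 33 of Arntl (0.439%) over Gm45355. The libraries were made with a stranded kit, but the strand setting of the counting is not given in the sources used here, so reads in these stretches are uncertain. Thra, the thyroid hormone receptor gene on the other strand, stood at 7.41 ± 0.746 FPKM in Ctrl, 8.72 ± 1.31 in Case and 9.35 ± 0.659 in Dapa. Sphk2 stood at 4.02 ± 0.432, 3.98 ± 1.01 and 4.10 ± 0.714 FPKM.

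The spread between mice of one group differed among the clock genes. The SD of log2 CPM (counts scaled to library size) was largest for Npas2, 0.71 in Ctrl, 1.12 in Case and 0.90 in Dapa, above 93.2%, 97.1% and 95.8% of the 14321 genes tested in all comparisons, whose median SD was 0.21, 0.27 and 0.26. Arntl had 0.653, 0.845 and 0.545 (91.7%, 93.6% and 84.9%), and Dbp had 0.621, 0.810 and 0.345 (90.8%, 92.8% and 65.6%), the next in order in Ctrl and in Case. In Dapa, Per1 came next after Npas2 with 0.607 (88.2%), and Per1, Arntl, Per2, Cry1, Cry2 and Per3 all lay above Dbp. Clock was steadier, at 0.313, 0.235 and 0.242 (69.0%, 40.8% and 46.6%). Nr1d1 had an SD of 0.15 in Ctrl (34.6%), 0.61 in Case (86.2%) and 0.23 in Dapa (43.4%), and the difference of these spreads was not tested.

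To see whether mice of one group differed from one another along the order of the clock, Arntl was compared with each of the other 9 genes across the 17 mice after each group's mean had been taken away. With 9 pairs computed and permutation within groups (100000 draws, two-sided), 4 passed an adjusted p of 0.05. Npas2 ran with Arntl (Pearson's r = 0.830, p = 0.00035, q = 0.00157, Spearman's rho = 0.811, p = 0.00037), and Per3 ran most strongly against it (r = -0.864, p = 0.0001, q = 0.0009, rho = -0.880, p = 8e-05). Dbp (r = -0.691, p = 0.0045, q = 0.0135, rho = -0.674, p = 0.00497) and Per2 (r = -0.601, p = 0.0138, q = 0.0311, rho = -0.569, p = 0.0279) also ran against Arntl. Mice with more Arntl than their group thus had more Npas2 and less Per3, Dbp and Per2.

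The other pairs did not pass the permutation test. Cry2 had r = -0.554 (q = 0.0642, rho = -0.485, p = 0.0589), Clock r = 0.367 (q = 0.260, rho = 0.422, p = 0.118), Cry1 r = -0.284 (q = 0.372, rho = -0.245, p = 0.370), Nr1d1 r = 0.162 (q = 0.772, rho = 0.162, p = 0.561) and Per1 r = -0.070 (q = 0.788, rho = 0.002, p = 0.996).

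**Figure D3:**
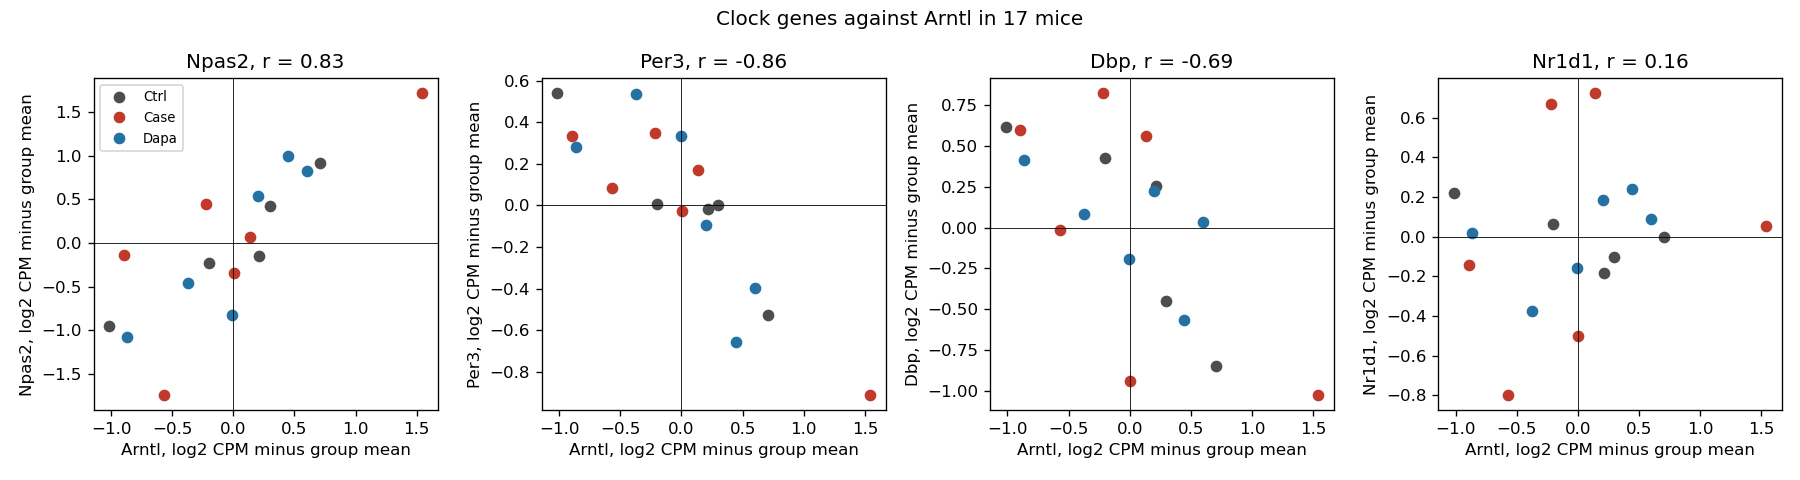
Each mouse's log2 CPM minus its group mean for Npas2, Per3, Dbp and Nr1d1 (vertical axes) against the same for Arntl (horizontal axes), 17 mice, grey Ctrl, red Case, blue Dapa. Npas2 rises with Arntl (r = 0.83), Per3 and Dbp fall (r = -0.86 and -0.69) and Nr1d1 shows no slope (r = 0.16); the point farthest right in each panel is Case replicate 3.

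Part of this changed when 2 mice were left out. Without Case replicate 3 and Ctrl replicate 3, the mice farthest from the median of Arntl, r was -0.710 for Per3 (permutation p = 0.0107) and 0.714 for Npas2 (p = 0.0080), but -0.484 for Dbp (p = 0.0669) and -0.397 for Per2 (p = 0.197), so that the relations of Dbp and Per2 no longer passed without those mice. For Cry2, r fell to -0.074 without them (permutation p = 0.838). The 2 mice were chosen by Arntl itself. Leaving out its extremes narrows its range and can lower r by itself, so these falls cannot show that a relation rests on those mice. Without Case replicate 3 alone, 2 of the 9 pairs passed. Within the 6 Case mice r was -0.910 for Per3 (exact permutation p = 0.0375), 0.773 for Npas2 (p = 0.0972), -0.647 for Dbp (p = 0.156) and -0.829 for Per2 (p = 0.0639), and within the 6 Dapa mice it was -0.786 (p = 0.0667), 0.882 (p = 0.0208), -0.614 (p = 0.189) and -0.543 (p = 0.276). None of these passed after adjustment over the 9 pairs, and no correlation was computed within the 5 Ctrl mice. In 7 libraries (3 of Ctrl, 1 of Case and 3 of Dapa) 3 other genes, whose entries in the deposited table run over 2 lines, had FPKM that did not follow their counts, and without these libraries r was -0.826 for Per3 (permutation p = 0.0185), 0.760 for Npas2 (p = 0.0565), -0.757 for Dbp (p = 0.0638) and -0.634 for Per2 (p = 0.0237), with 0 of 9 pairs passing the adjustment.

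In 2 mice, Case replicate 3 and Dapa replicate 7, the mRNA of Arntl was above that of Dbp in FPKM. Dapa replicate 7 was also the Dapa mouse with the lowest Per1, Per2, Per3, Cry1, Cry2 and Dbp.

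The genes whose deviations from the group means were most like those of Arntl were sought among 11380 genes with a mean of at least 1 FPKM, as a description with no test. The highest r over the 17 mice belonged to Dtx4 (0.903), Npas2 (0.830), Hn1l (0.829), Dhx33 (0.827) and Nelfb (0.819). The lowest belonged to Per3 (-0.864), Fam20b (-0.843), Tmem38b (-0.836), Nr1d2 (-0.818), which encodes the relative REV-ERB beta, and Trak2 (-0.811). Of the 11380 genes Per3 thus ranked 1 from the low end and Dbp 46, while Tef, a relative of Dbp from the wider clock list, ranked 27 with r = -0.725.

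Of the wider loop, 17 of 18 listed genes (REV-ERB and ROR relatives, PAR bZIP factors, kinases and ubiquitin ligases of the clock) were tested. In Case against Ctrl 1 of 17 was called, against 13.0% of all genes. Between Dapa and Case edgeR called 0, with 2 at an unadjusted p under 0.05 against 12.9% of all genes. In Dapa against Ctrl 4 were called, 1 higher and 3 lower, against 29.1% of all genes. At an unadjusted p under 0.05 stood 6 of 17 in Case against Ctrl, against 28.7% of all genes. The median log2 fold change of the list in Case against Ctrl was -0.04, beside 0.03 for all genes. The gene called in Case was Fbxw11, a ubiquitin ligase subunit that marks PER proteins for breakdown, which was lower by -0.38 ± 0.11 (q = 0.0400), a call that stood in 4 of 11 fits without a mouse and under 8 of 13 other settings.

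Nr1d2 stood at 21.6 to 33.8 FPKM in Ctrl with a median of 28.0, at 23.3 to 32 in Case with a median of 30.7, and at 22.1 to 31.1 in Dapa with a median of 27.5. The groups overlapped over most of their range. It differed by -0.02 ± 0.14 in Case against Ctrl (q = 0.954) and by -0.14 ± 0.12 in Dapa against Ctrl (q = 0.390), and whether Nr1d1 and Nr1d2 differ from each other in this was not tested.

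**Figure D4:**
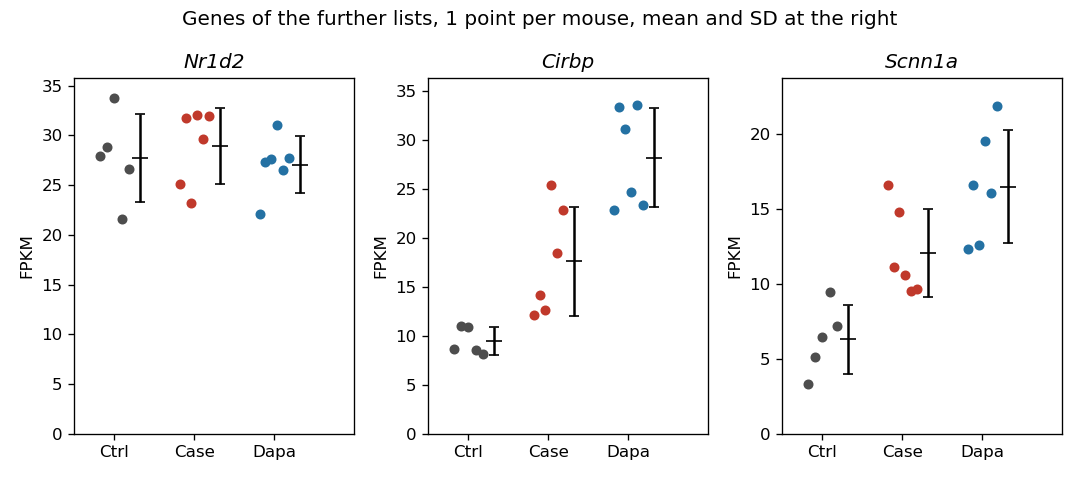
FPKM of 3 genes beside the core clock (linear axes from 0), 1 point per mouse of Ctrl (grey, n = 5), Case (red, n = 6) and Dapa (blue, n = 6), with mean and SD at the right. Cirbp and Scnn1a have every Case and Dapa mouse above every Ctrl mouse, Scnn1a by a narrow margin (9.438 FPKM in the highest Ctrl mouse, 9.535 in the lowest Case mouse). Nr1d2 overlaps in all groups.

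Of 18 listed output genes of the clock 3 were called in Case against Ctrl, against 13.0% of all genes, with a median of -0.08 on the log2 scale, and 6 in Dapa against Ctrl, against 29.1%. Both shares lie near those of all genes and are no result about the list. Nampt, the rate-limiting enzyme of NAD salvage, was higher in Case (79.0 ± 14.2 against 51.2 ± 1.65 FPKM, log2 difference 0.54 ± 0.11, q = 0.00921). Por, the electron donor of cytochromes P450 (-0.53 ± 0.14, q = 0.0288), and Fmo2, a flavin monooxygenase (-0.69 ± 0.19, q = 0.0335), were lower in Case. The call of Nampt stood in all 11 fits without a mouse, that of Por in 6 and that of Fmo2 in 4. In Dapa against Case the quasi-likelihood test of edgeR called 0 of 18, with 4 at an unadjusted p under 0.05 against 12.9% of all genes. Noct, a gene of this list named after its values were seen, differed there by 1.54 ± 0.39 (q = 0.202) and was called by 2 of 12 other settings (q from 0.0175 to 0.346 over all 12).

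Of 14 kidney transport and hormone genes known to follow the day, 2 were called in Case against Ctrl, both higher, against 13.0% of all genes, which is near the share of the list. In Dapa against Ctrl 9 were called, 7 higher and 2 lower, against 29.1% of all genes. Scnn1a, the alpha subunit of the epithelial sodium channel and a known target of the clock, measured 6.30 ± 2.29 FPKM in Ctrl, 12.1 ± 2.95 in Case and 16.5 ± 3.78 in Dapa. It was higher in Case than in Ctrl by 0.86 ± 0.22 (q = 0.0238) with no overlap. The margin was narrow, with the highest Ctrl mouse at 9.438 FPKM and the lowest Case mouse at 9.535. Aqp2, the water channel of the collecting duct, was higher in Case than in Ctrl by 0.78 ± 0.22 (q = 0.0395). Without each mouse in turn the call of Scnn1a stood in 9 of 11 fits and that of Aqp2 in 5. In Dapa against Case 0 of 14 were called by edgeR or by any other setting, with 5 at an unadjusted p under 0.05 against 12.9% of all genes.

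Cry1 and Per1 are also reached by hormones, stress and temperature, and 3 lists of such genes were read beside them. Of 12 glucocorticoid response genes 2 were called in Case against Ctrl, both metallothioneins and both higher (Mt1 by 1.21 ± 0.23, q = 0.00641, and Mt2 by 1.33 ± 0.29, q = 0.0127), and 4 in Dapa against Ctrl. The shares of all genes called were 13.0% and 29.1%, near those of this list. Of 10 immediate early genes tested 6 were called in Case, all higher, where 6.09% of all genes were called higher: Fos by 2.80 ± 0.71 (q = 0.0235), Egr1 by 2.40 ± 0.58 (q = 0.0182), Nr4a1 by 1.52 ± 0.47 (q = 0.0486), Junb by 1.31 ± 0.26 (q = 0.00821), Btg2 by 0.97 ± 0.13 (q = 0.000762) and Ier2 by 0.70 ± 0.21 (q = 0.0439). Without each mouse in turn the calls of Nr4a1, Ier2, Fos and Egr1 stood in 2, 3, 8 and 10 of 11 fits, and those of Junb and Btg2 in all 11. In Dapa against Ctrl 8 of 10 were called, all higher, where 14.2% of all genes were. The median log2 fold change of this list in Case was 1.14, beside 0.03 for all genes.

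Of 8 cold and heat shock genes 5 were called in Case, against 13.0% of all genes. Cirbp, a cold-induced RNA-binding protein known to act on Clock mRNA, was higher by 0.82 ± 0.21 (q = 0.0251) with no overlap, a call that stood in 9 of 11 fits without a mouse. The chaperone genes Hsph1 (-1.31 ± 0.26, q = 0.00828), Hspa8 (-0.82 ± 0.18, q = 0.0109), Hsp90aa1 (-0.74 ± 0.16, q = 0.0116) and Dnajb1 (-0.73 ± 0.12, q = 0.00232) were lower. Cirbp was higher in Dapa than in Ctrl by 1.47 ± 0.14 (q = 9.64e-05). In Dapa against Case edgeR called 0 genes of any of these 3 lists, with 2 glucocorticoid response genes, 0 immediate early genes and 1 shock gene, Cirbp, at an unadjusted p under 0.05, against 12.9% of all genes. The part of stress or hormone responses in the differences of the clock genes was not tested.

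Markers of kidney tissue were present in every library, with the summed FPKM of Lrp2, Slc34a1 and Slc5a2 at 947 to 1975. All 3 erythrocyte markers were higher in both db/db groups, with a summed FPKM of 12.6 to 44.8 in Ctrl, 40.5 to 287 in Case and 73.0 to 229 in Dapa. The 4 macrophage markers summed to 9.42 to 17.2, 9.10 to 46.4 and 9.86 to 21.4, and the 4 adipocyte markers to 0 to 64.2 in Ctrl, 0 to 0.351 in Case and 0 to 9.41 in Dapa. Markers of T cells, B cells and adrenal gland (2 of its 4 listed markers had a row) summed to at most 1.09 FPKM in any mouse, and none of the markers with a row was at 0 in every library. Lrp2, a marker of the proximal tubule, was lower by -0.98 ± 0.17 in Case (q = 0.00407) and by -1.25 ± 0.18 in Dapa (q = 0.000557) against Ctrl. The other markers of that segment differed less, Slc34a1 by -0.26 ± 0.20 in Case (q = 0.405) and -0.31 ± 0.10 in Dapa (q = 0.0367), and Slc5a2 by -0.28 ± 0.25 (q = 0.481) and -0.03 ± 0.14 (q = 0.892). Nphs1, a podocyte marker, was higher by 0.59 ± 0.10 in Case (q = 0.00361) and by 0.67 ± 0.10 in Dapa (q = 0.000910). The part of cell composition in the differences of Cry1, Cry2 and Nr1d1 was not tested.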

How the data were processed

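RNA of whole kidneys from 5 Ctrl, 6 Case and 6 Dapa mice was sequenced after oligo(dT) enrichment with a stranded kit. According to the methods, HISAT2 was used by the authors for alignment to mm10, and Stringtie gave the read count per gene that they deposited. The authors also deposited FPKM, which followed count, 1 fitted factor per library and 1 factor per gene to within 0.0012%. The methods name TMM scaling before the conversion to FPKM. Whether a TMM factor is in the FPKM cannot be read from this fit, as it would fall into the library factor. Of 22561 genes, 3 whose entries ran over 2 lines (Sirt1, Tgfb1 and Bmp4) were left out. Totals per library ran from 13039535 to 17779635 counts, with 17.9% to 27.6% on mitochondrial genes. At this depth a gene near 10 counts has a large counting error.

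Groups came from GEO's labels. For each pair of groups a separate quasi-likelihood fit was made with edgeR 4.0.16 in R 4.3.3, after filterByExpr and TMM scaling. Tests were two-sided, p-values were adjusted by Benjamini and Hochberg's method over all genes tested, and q under 0.05 was a call. SE was taken from the test, and intervals are at 95%. Correlations used log2 CPM (prior count 0.5) with Python 3.11.15, numpy 2.4.6, scipy 1.17.1 and pandas 2.3.3, and figures were drawn with matplotlib 3.10.9. Alternatives used DESeq2 1.42.0, limma 3.58.1 (log2 of FPKM plus 1 or 0.1, and voom), the exact test, other scalings and filters, thinning and leaving out each mouse. The fits were tested on simulated data.

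Named genes are the 10 clock genes, those of each further list (other than the cell markers) with q under 0.05 in Case against Ctrl, and 5 genes at each end of the ranking by r with Arntl. Noct, Tef, Nr1d2, Thra, Sphk2 and the cell markers with values were added after their values were seen. 1 gene of the wider clock list is not reported here and is not in its counts. The clock genes and lists were chosen with earlier results of these data known. Columns of annotation terms were not used.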

Additional observations from a re-analysis of the deposited data

Results flagged for a closer look

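In groups of 5 or 6 mice, the highest or lowest value was set against its nearest neighbour by Dixon's ratio of that gap to the whole range. Of 30 groups examined (10 clock genes in 3 groups) 3 were marked, where chance marks about 1 in 20. Arntl in Case replicate 3 stood at 7.50 FPKM with the nearest Case mouse at 2.60 (gap 0.775 of the range, critical value 0.625). Npas2 in the same mouse stood at 1.50 FPKM with the nearest at 0.573 (0.672 of the range). Cry1 in Case replicate 2 stood at 6.61 FPKM with the nearest at 3.48 (0.774 of the range). Case replicate 3 also had the lowest Per2, Per3 and Cry2 of its group, and without it Arntl differed by -0.58 in Case against Ctrl and by 1.55 in Dapa against Case on the log2 scale, neither called. Npas2 without it differed by -1.09 in Case against Ctrl, not called.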

How the results depend on the processing

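In Case against Ctrl 1 clock gene, Cry1, was called. The count was 3 with DESeq2, edgeR's exact test and voom with sample quality weights (Cry1, Cry2 and Nr1d1), and 2 with upper quartile scaling, at least 10 counts in every sample, limma on either FPKM scale, thinning to the smallest library (Cry1 and Cry2) and all 3 groups in one fit (Cry1 and Nr1d1). It was 1 to 2 without each mouse in turn. In Dapa against Case the count was 0, but 1 with DESeq2 and the exact test (Per1) and 0 to 1 without each mouse, also with the fold condition. In Dapa against Ctrl it was 5, but 6 with DESeq2 and the exact test (Npas2 added). With all 3 groups in one fit it was 3 (Per1, Cry1 and Cry2), and without each mouse 3 to 6. With the fold condition it was 3, 1 with the fold from edgeR, and 1 to 4 without each mouse.

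Over all genes, DESeq2 called 208 and the exact test 129 in Dapa against Case, where the quasi-likelihood test called 0. A term for the 7 libraries lowered the count in Case against Ctrl from 1895 to 1219. Without each mouse in turn this count ran from 1002 (without Ctrl replicate 3) to 2154 (without Case replicate 5). The share of all genes printed beside the lists moves with it. Ctrl and Case share replicate numbers 1 to 5, but same-numbered mice did not deviate together (r -0.059 to -0.040), and with the number as a block 707 genes were called, Cry1 among them (1 of 10 clock genes).

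Differences near 0 changed sign. In Case against Ctrl, Dbp was 0.038 with upper quartile scaling, 0.011 with at least 10 counts, 0.012 and 0.007 with limma and 0.008 with thinning, and Clock was 0.014 and 0.022 with limma. Per2 in Dapa against Case was -0.118 with the term for the 7 libraries. Without each mouse in turn the ranges were -0.581 to 0.152 (Arntl), -0.153 to 0.024 (Clock) and -0.174 to 0.160 (Dbp) in Case against Ctrl, and -0.143 to 0.008 (Clock), -0.026 to 0.262 (Nr1d1), -0.072 to 0.182 (Per2) and -0.229 to 0.011 (Per3) in Dapa against Case.

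Of 9 correlations with Arntl 4 passed, but 0 within Case, within Dapa and without the 7 libraries, and 2 to 5 without each mouse. The settings with 0 held fewer mice, 6 in Case and 6 in Dapa. Without the 7 libraries r was -0.826 for Per3, 0.760 for Npas2, -0.757 for Dbp and -0.634 for Per2, beside -0.864, 0.830, -0.691 and -0.601 in all 17 mice. The r of Per1 was 0.023 on log2(FPKM + 0.1) and -0.150 to 0.077 without each mouse, and that of Clock was -0.044 without the 7 libraries. Per2 no longer passed on log2(FPKM + 0.1) (r = -0.511, q = 0.0782), without Ctrl replicate 3 (-0.559, q = 0.0507), Ctrl replicate 4 (-0.575, q = 0.0547), Case replicate 3 (-0.478, q = 0.199) or Dapa replicate 10 (-0.588, q = 0.0541). The cause of these changes was not tested.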
